A study of Mus musculus with 6 samples.

Results

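The 86 genes described here are the nuclear genes for subunits of the mitochondrial respiratory chain and ATP synthase. They were taken by symbol from a table of 39171 mouse genes, as protein-coding genes outside the mitochondrial chromosome. The symbols were those that follow the naming of subunits of complexes I to V or of cytochrome c. Whether each protein is a structural subunit was not checked. By symbol, 37 belonged to complex I, 4 to complex II, 9 to complex III, 18 to complex IV and 17 to complex V, and 1 encoded cytochrome c. Polyadenylated RNA was taken from ventricle tissue, without atria, of CD-1 mice, an outbred stock, all of them wild type and with no treatment named. There were 3 libraries from mice 2 days old (P2) and 3 from mice 1 day old (P1). The values are FPKM, the fragments of a gene scaled to transcript length and to library size. Levels of genes of different length can therefore be set side by side within a library. How the libraries were scaled to each other is not given. The number of fragments behind a value is unknown.

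The respiratory chain carries electrons from NADH (complex I) and succinate (complex II) through complex III and cytochrome c to oxygen at complex IV, and pumps protons that drive ATP synthase (complex V). Most of its subunits are encoded in the nucleus, and a small set, including some core subunits of complexes I, III and IV, is encoded in mitochondrial DNA. In the heart, which relies on oxidative metabolism after birth, some complex IV subunits exist as a ubiquitous and a muscle form, made from separate genes. Cox6a2, Cox7a1 and Cox8b encode the muscle forms, and Cox6a1, Cox7a2 and Cox8a the ubiquitous ones.

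The genes of each pair differ in sequence along their coding regions. In GENCODE M21 coding sequences, ungapped stretches of 90 bases were compared, moved by whole codons in both genes. The most alike of these was identical at 71 positions for Cox6a2 and Cox6a1, at 64 for Cox7a1 and Cox7a2 and at 54 for Cox8b and Cox8a. Over the whole coding sequences, set against each other at every offset, the longest run shared without a difference was 12, 12 and 10 bases. The stretches are shown here for the Cox7a and Cox8 pairs because the comparison of muscle and ubiquitous forms rests on telling them apart. They are read 5′ to 3′ on the coding strand, with the positions of the whole gene in GRCm38 and with capitals at the bases that differ within the pair.
Cox7a1 (chr7:30184144-30186078, plus strand, coding bases 76 to 165): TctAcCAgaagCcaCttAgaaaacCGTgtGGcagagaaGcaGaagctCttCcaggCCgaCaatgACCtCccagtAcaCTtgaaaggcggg
Cox7a2 (chr9:79755361-79759878, minus strand, coding bases 55 to 144): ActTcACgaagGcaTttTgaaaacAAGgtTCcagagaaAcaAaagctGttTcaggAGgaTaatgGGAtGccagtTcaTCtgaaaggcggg
Cox8b (chr7:140898945-140900446, minus strand, coding bases 109 to 198): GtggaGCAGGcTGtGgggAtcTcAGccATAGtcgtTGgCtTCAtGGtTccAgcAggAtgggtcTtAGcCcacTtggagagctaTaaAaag
Cox8a (chr19:7215153-7217616, minus strand, coding bases 112 to 201): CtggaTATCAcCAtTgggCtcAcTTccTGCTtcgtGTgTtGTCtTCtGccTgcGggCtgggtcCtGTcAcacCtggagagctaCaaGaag

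Across all genes, the FPKM sum was 807632 to 858436 in the P2 libraries and 716968 to 754509.6 in the P1 libraries. Over nuclear protein-coding genes alone it was 402631 to 420010 at P2 and 398176 to 406739 at P1, with overlap between the ages. The labels speak of 3 hearts per age without saying that each library came from its own animal, so the errors and p-values measure the spread between these libraries, which may be technical. In bulk tissue, fewer cells of a type and less RNA per cell cannot be told apart. Of 14 cardiomyocyte markers, 11 averaged at least 1 FPKM, while Myh6, Actc1 and Myl2 were listed at 0 in all libraries and Tnnt2 in all P1 libraries. The same list without Tnnt2 summed to 12851 to 13015 FPKM at P2 and 11996 to 12553 at P1. All 6 atrial markers were present and summed to 547 to 777 FPKM at P2 and 953 to 1502 at P1, although the tissue is labelled as ventricle. The sums of 6 erythroid markers were 754 to 952 FPKM at P2 and 961 to 1358 at P1, those of 4 epicardial markers 26.3 to 32.9 FPKM at P2 and 35.0 to 37.7 at P1 and those of 5 endothelial markers 243 to 251 FPKM at P2 and 214 to 237 at P1. For 5 pericyte and smooth muscle markers they were 137 to 152 FPKM at P2 and 114 to 131 at P1. Each of these 6 sums was separated by age, and their part in the results below was not tested. Sums of fibroblast, leukocyte, brown adipocyte and skeletal muscle markers overlapped, and only 2 of 10 skeletal muscle markers reached 1 FPKM, with Myod1 listed at 0 in all libraries.

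The library of P2 replicate 2 stood apart for the respiratory chain genes. Of the 84 members that could be tested, 55 (65.5%) had their highest value of the 6 libraries there, against 27.5% of all tested genes. The other libraries held between 3 and 8 of these highest values. P1 replicate 2 held the lowest value for 33 members (39.3%), against 16.3% of all genes. The median member lay 0.079 above its mean on the log2 scale in P2 replicate 2, where the median of all genes lay 0.024 above. The count for P2 replicate 2 depended on scaling. It was 34 members with median ratio scaling (40.5%, beside 20.8% of all genes) and 24 with equal sums of nuclear protein-coding genes (28.6%, beside 15.6%). With equal FPKM sums or quantile normalization it was 11 (13.1%, beside 14.1% and 19.7%). With equal FPKM sums, P1 replicate 1 held the highest value for 61 members instead (72.6%, beside 33.5% of all genes). Counts over all members are therefore also given without this library, while those of complexes III and V are not.

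**Figure D1:**
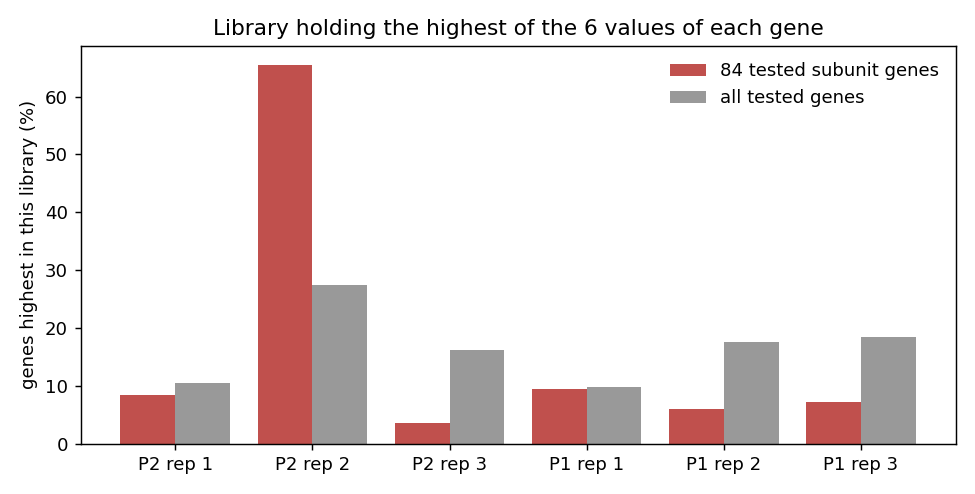
Share of genes whose highest value of the 6 libraries fell in each library (percent, bars from 0), for the 84 tested respiratory chain genes (red) and for all 13624 tested genes (grey), with P2 libraries on the left. P2 replicate 2 held 65.5% of the respiratory chain genes and 27.5% of all genes.

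Respiratory chain genes were among the most abundant nuclear transcripts as listed in the table. Averaged over the 6 libraries, 79 of the 86 reached 100 FPKM, 12 reached 1000 FPKM and 38 were among the 100 highest of 21211 nuclear protein-coding genes. Together they held between 11.8% and 12.3% of the FPKM of nuclear protein-coding genes in each library. These ranks and shares hold for the listed values only. In them 3631 nuclear protein-coding genes, with Myh6, Actc1 and Myl2 among them, were at 0 in all libraries, and Tnnt2 was at 0 in all P1 libraries. The summed level of the respiratory chain genes was 49073 ± 1706 FPKM at P2 and 48037 ± 841 FPKM at P1 (SD, n = 3 each), a difference smaller than the SD of the P2 libraries. The median level per gene differed by complex, with 292 FPKM in complex I and 417 in complex II, 568 in complex III, 593 in complex IV and 825 in complex V. Cytochrome c (Cycs), the mobile carrier between complexes III and IV, averaged 166 FPKM.

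**Figure D2:**
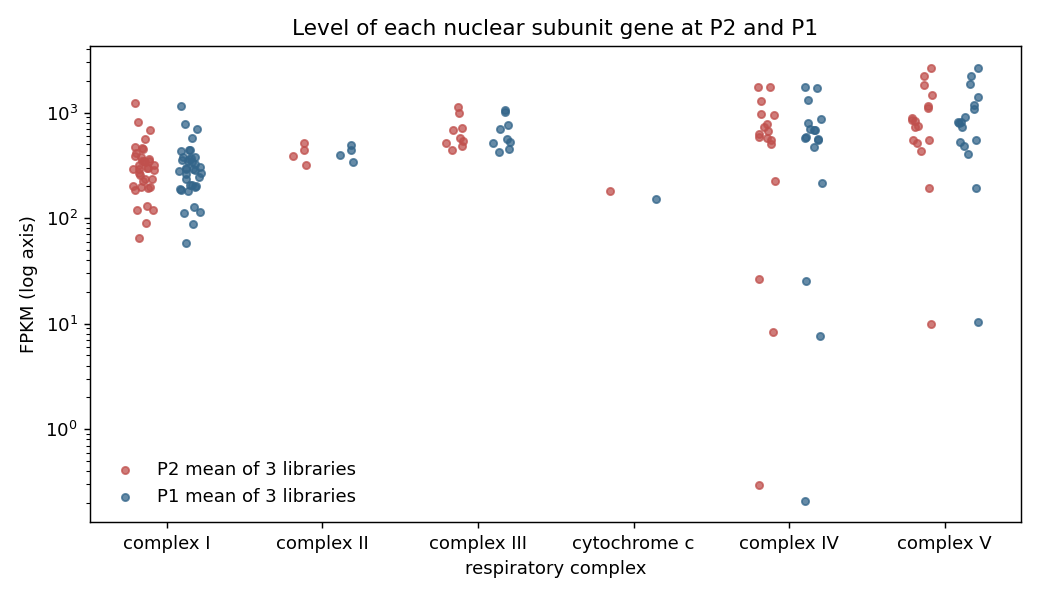
Mean FPKM (log axis) of each subunit gene over 3 P2 libraries (red, left of each pair) and 3 P1 libraries (blue), by complex, with Cox8c, listed at 0 in all libraries, left out. Most points lie above 100 FPKM, and the low points are Cox4i2, Cox6b2 and Cox7b2 of complex IV and Atp5s of complex V.

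No member passed the test between the ages. limma on log2(FPKM + 1) with Benjamini-Hochberg adjustment over all 13624 tested genes (adjusted p under 0.05) called 0 of 84 members, where 0.161% of all genes were called (0.0734% higher and 0.0881% lower at P2). The lowest adjusted p among members was 0.158. At an unadjusted p under 0.05, 8 members had higher values at P2 and 1 lower, where all genes gave 10.7% and 7.89%. The differences were also small. The log2 change was under 0.1 in size for 66 members and under 0.2 for 80. The 95% interval of the change stayed within 0.3 on either side of 0 for 76 of 84 members and within 0.5 for 82. Atp5e and Cox7b had wider intervals. In what follows, levels of an age are means ± SD over its 3 libraries, log2 changes are P2 minus P1 ± SE, and none of the changes was called unless a sentence says so.

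The members leaned towards slightly higher values at P2, and this lean depended on 1 library and on scaling. The log2 change was above 0 for 60 of 84 members, with a median of 0.048, where 54.7% of all genes lay above 0 and their median was 0.014. Every P2 value lay above every P1 value for 24 members and below for 5, where all genes gave 14.4% and 10.6%. Without P2 replicate 2, 47 of 84 changes were above 0 with a median of 0.020, beside 51.7% of all genes. The values of the ages then were apart, with P2 above, for 25 members (29.8%, and 17.5% of all genes), and with P2 below for 13 members (15.5%, and 15.5% of all genes). Of 42 named members, 25 had a log2 change that moved by over 1.5 times or changed sign without this library, and where the change of such a gene is given below, its value without the library stands beside it. With equal sums of nuclear protein-coding genes the count was 47 (56.0%, beside 45.8% of all genes). It was 51 with median ratio scaling (60.7%, beside 49.9%) and 39 with quantile normalization (46.4%, beside 48.7%). Equal FPKM sums moved the median of all genes to -0.14, with 15.6% of all genes above 0. Under them 81 of 84 members lay below 0, with a median of -0.12. Only Cox5a, Cox7b and Cycs stayed above 0 there, so the directions of single genes given in what follows hold for the values as deposited.

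**Figure D3:**
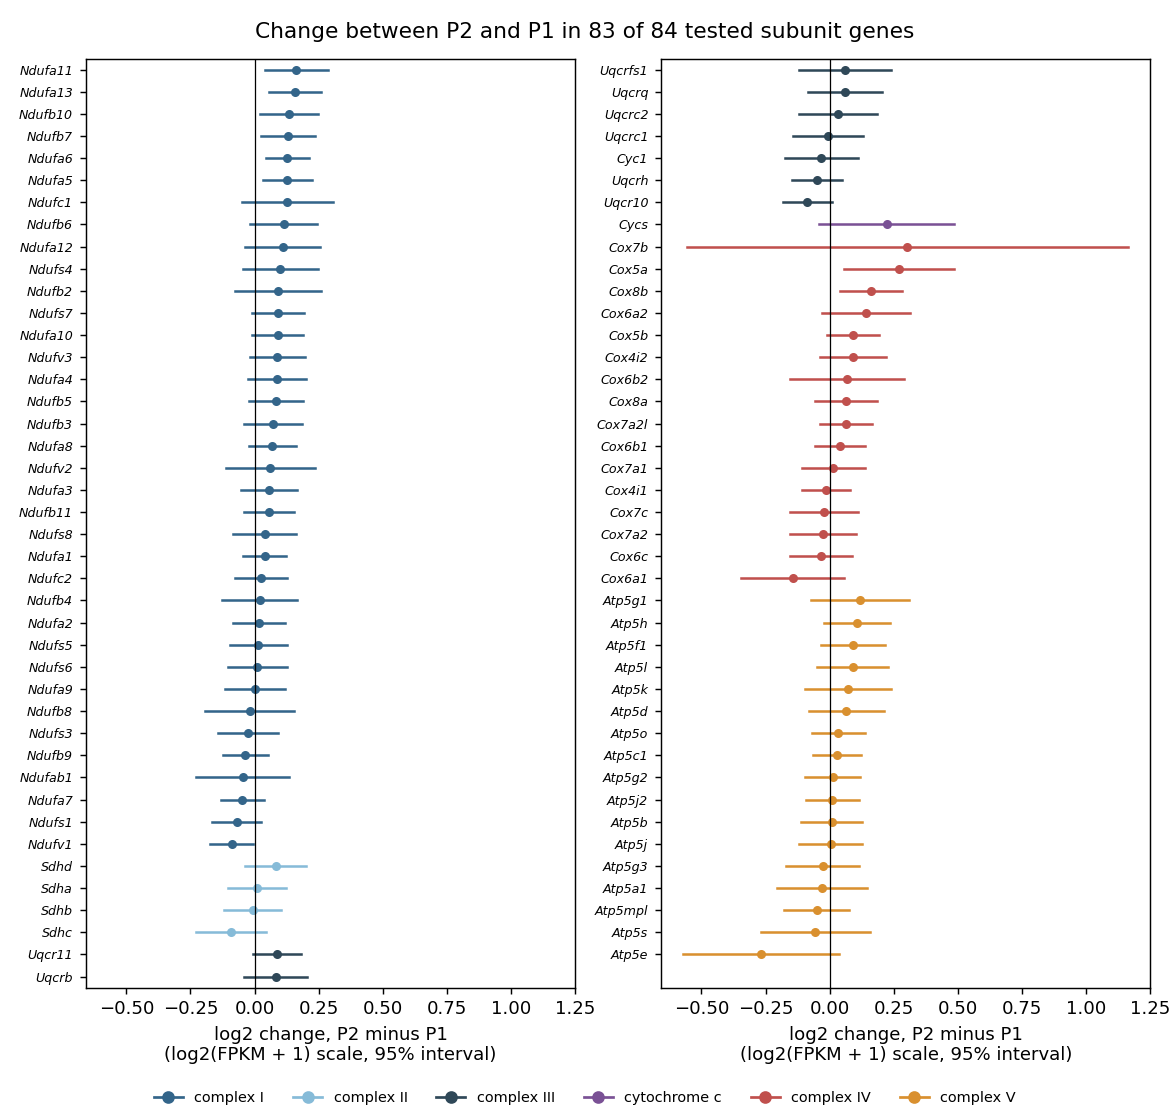
Log2 change at P2 relative to P1 (points, on the log2(FPKM + 1) scale) with its 95% interval (lines) for 83 of the 84 tested subunit genes, coloured by complex and ordered by size within it. Most intervals cross 0, and that of Cox7b (-0.56 to 1.16) is the widest.

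Complex I takes electrons from NADH, and its nuclear subunits divide into catalytic core subunits and accessory ones that surround them. Among accessory subunits, 26 of 30 had a log2 change above 0 (median 0.078), and among the 7 core subunits 3 did (median -0.026). Of all genes 54.7% lay above 0, and none of either group passed the test over all genes. Without P2 replicate 2 the counts were 21 of 30 and 2 of 7, and with equal FPKM sums they were 0 and 0. The core genes also had more exon bases, counted once each over all annotated transcripts of a gene, with a median of 2178 where accessory genes had 1316. This exon length and log2 change had a Spearman rho of -0.14 across the 84 members. It was -0.0058 across 13460 tested genes, and genes are not independent replicates. Ndufa4, which is counted here by its name although its protein has since been placed in complex IV, had the highest level (1227 ± 39.1 FPKM at P2 and 1155 ± 35.7 at P1), followed by the accessory subunits Ndufa3 (809 ± 24.8 FPKM at P2 and 778 ± 25.0 at P1) and Ndufb8 (687 ± 46.5 FPKM at P2 and 697 ± 46.0 at P1). The lowest was Ndufa11, a membrane arm subunit (65.1 ± 3.54 FPKM at P2 and 57.9 ± 1.82 at P1).

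The smallest p of all members was that of Ndufa13, an accessory subunit also known as GRIM-19. It was at 243, 224 and 231 FPKM in P2 replicates 1 to 3, against 211, 204 and 209 FPKM in P1 replicates 1 to 3. The P2 values all exceeded the P1 values, with a log2 change of 0.16 ± 0.041 (SE, 95% interval 0.058 to 0.26, limma, Benjamini-Hochberg adjusted p = 0.158). By whole-gene positions in GENCODE M21, Ndufa13 overlaps Yjefn3 on its own strand. If exons are shared, which was not checked, their fragments could be counted for either gene. A same-strand overlap by position was also found for 11 other members. Among them were Cox4i1, Ndufb9 and Atp5b, the last with the small RNA genes Snord59a and Mir677. On the opposite strand, 29 members overlap a gene. Fragments of a shared exon there cannot be told apart unless strand was used in counting, which is not given. Ndufa6, an accessory subunit of the peripheral arm, followed with 381, 385 and 379 FPKM in P2 replicates 1 to 3, against 341, 351 and 355 FPKM in P1 replicates 1 to 3. These ages did not overlap either, with a log2 change of 0.13 ± 0.034 and an adjusted p of 0.163 in limma.

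Further accessory subunits with an unadjusted p under 0.05 were Ndufa5 (473 ± 13.5 FPKM at P2 and 432 ± 8.24 at P1), Ndufa11, Ndufb7 (388 ± 11.3 FPKM at P2 and 355 ± 12.3 at P1) and Ndufb10 (413 ± 16.7 FPKM at P2 and 376 ± 11.1 at P1), with log2 changes of 0.13, 0.16, 0.13 and 0.13. Of the core subunits, Ndufv1, which binds NADH and its flavin, was at 347, 339 and 349 FPKM in P2 replicates 1 to 3, against 371, 369 and 361 FPKM in P1 replicates 1 to 3. It was lower in every P2 library, and its log2 change was -0.089 ± 0.034 (Benjamini-Hochberg adjusted p from limma = 0.246). Ndufs1, an iron-sulfur core subunit, also had all P2 values below all P1 values (236 ± 5.09 FPKM at P2 and 247 ± 7.74 at P1, log2 change -0.069 ± 0.039). The core subunit Ndufs7 lay on the other side, at 287 ± 5.95 FPKM at P2 and 269.7 ± 10.1 at P1, with no overlap. With equal FPKM sums, Ndufv1 and Ndufs1 were called lower, as were the complex I genes Ndufa7 and Ndufb9 and the complex III genes Uqcr10 and Uqcrh. These were 6 of 84 members, where that scaling called 2394 of all genes lower. The values as deposited had 13624 tested genes.

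Complex II oxidizes succinate in the citric acid cycle and has only nuclear subunits. Its 4 genes had levels within a narrow range, 326 to 503.9 FPKM. The flavoprotein Sdha was at 445 ± 17.9 FPKM at P2 and 442 ± 13.9 at P1 and the iron-sulfur subunit Sdhb at 390.3 ± 17.4 FPKM at P2 and 392 ± 9.16 at P1, each a difference smaller than the SD within an age. The membrane anchors had log2 changes of opposite sign, and Sdhd was higher in every P2 library. Sdhd was at 519 ± 27.4 FPKM at P2 and 489 ± 8.999 at P1 (log2 change 0.083 ± 0.049) and Sdhc at 316 ± 18.2 FPKM at P2 and 337 ± 13.7 at P1 (-0.091 ± 0.056). Without P2 replicate 2 the changes were 0.040 for Sdhd, -0.14 for Sdhc and -0.043 for Sdhb, and that of Sdha was below 0. Neither anchor passed the test, with adjusted p of 0.42 and 0.434 in limma.

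In complex III, which passes electrons from ubiquinol to cytochrome c, 5 of 9 changes were above 0, beside 54.7% of all genes, and none was called. This count includes P2 replicate 2, and without that library the change of Uqcrfs1 was below 0 (-0.010). The small subunit gene Uqcr11 had the highest level and was at 1101, 1141 and 1109 FPKM in P2 replicates 1 to 3, against 1040.3, 1041 and 1070.0 FPKM in P1 replicates 1 to 3. It was higher in every P2 library (log2 change 0.089 ± 0.039, limma, Benjamini-Hochberg adjusted p = 0.289). The hinge protein gene Uqcrh (987 ± 28.6 FPKM at P2 and 1020.4 ± 5.44 at P1) and Uqcr10 (712 ± 4.90 FPKM at P2 and 756 ± 23.2 at P1) were lower in every P2 library, with log2 changes of -0.049 ± 0.040 and -0.087 ± 0.039. Among the electron-carrying and core subunits, cytochrome c1 (Cyc1, 689.7 ± 46.3 FPKM at P2 and 704 ± 18.1 at P1), the Rieske protein Uqcrfs1 (444 ± 39.3 FPKM at P2 and 425 ± 20.8 at P1), Uqcrc1 (517 ± 27.9 FPKM at P2 and 519 ± 21.4 at P1) and Uqcrc2 (538 ± 40.0 FPKM at P2 and 526 ± 17.3 at P1) overlapped between the ages. Uqcrb, which lies near the quinone site, was at 482 ± 27.1 FPKM at P2 and 454 ± 1.91 at P1.

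Cycs was at 159, 211 and 167 FPKM in P2 replicates 1 to 3, against 151, 148 and 158 FPKM in P1 replicates 1 to 3. The P2 values all exceeded the P1 values, but P2 replicate 2 was far above the other 2 P2 libraries, and the log2 change of 0.22 ± 0.11 became 0.099 without that library. Its 95% interval over all libraries was -0.040 to 0.49 (limma, Benjamini-Hochberg adjusted p = 0.331).

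Complex IV reduces oxygen. Cox4i1, its largest nuclear subunit, Cox6b1, which joins the monomers of the complex, and Cox6c had the highest levels. They were at 1734 ± 14.2 FPKM at P2 and 1752 ± 19.1 at P1, at 1766 ± 28.9 FPKM at P2 and 1718 ± 21.8 at P1 and at 1292 ± 31.2 FPKM at P2 and 1323 ± 60.4 at P1, with log2 changes of -0.015 ± 0.039, 0.040 ± 0.040 and -0.034 ± 0.050, the last of them -0.021 without P2 replicate 2. The forms known from lung or testis were low or listed at 0. Cox4i2 averaged 7.97 FPKM, which was 0.455% of the Cox4i total, and Cox6b2 25.8 FPKM, 1.46% of the Cox6b total. Cox7b2 averaged 0.254 FPKM, under the level of 1 FPKM required for testing, and Cox8c was listed at 0 in all libraries. Cox7a2l, a relative of Cox7a2 that links complexes III and IV in supercomplexes, was at 227 ± 9.64 FPKM at P2 and 217 ± 2.67 at P1.

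Cox5a, a matrix-side subunit, had a larger change than most members. It was at 526, 642 and 559 FPKM in P2 replicates 1 to 3, against 465, 452 and 512 FPKM in P1 replicates 1 to 3. The ages did not overlap, and P2 replicate 2 was the highest. The log2 change was 0.27 ± 0.087 (95% interval 0.057 to 0.48, limma, Benjamini-Hochberg adjusted p = 0.202). Cox5b, a zinc-binding subunit, was at 624 ± 17.9 FPKM at P2 and 586 ± 15.4 at P1, also with no overlap, and a log2 change of 0.093 ± 0.042.

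The muscle forms made up a share of FPKM close to that of the ubiquitous forms for Cox7a and Cox8, and more for Cox6a. Cox6a2, the muscle form, was at 989, 997 and 878 FPKM in P2 replicates 1 to 3, against 809.5, 880.3 and 904 FPKM in P1 replicates 1 to 3. Cox6a1, the ubiquitous form, was at 469.7, 565 and 474 FPKM in P2 replicates 1 to 3, against 549, 534 and 580.5 FPKM in P1 replicates 1 to 3. The muscle form was the higher one in 6 of 6 libraries and held 65.5% ± 2.05 at P2 and 60.9% ± 1.33 at P1 of the pair (SD, n = 3 each). Its share was larger in every P2 library than in any P1 library. The single genes had log2 changes of 0.14 ± 0.070 and -0.14 ± 0.082 with opposite signs, and neither was called (limma, Benjamini-Hochberg adjusted p = 0.339 and 0.401). Without P2 replicate 2 the change of Cox6a1 was -0.23.

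Taken within each library, the log2 ratio of Cox6a2 to Cox6a1 was 0.93 ± 0.13 at P2 and 0.64 ± 0.081 at P1, a P2 minus P1 difference of 0.29 ± 0.089 (SE). An exact two-sided permutation test of 3 libraries against 3 gave p = 0.1, the smallest this design allows, and p = 0.3 adjusted over the 3 pairs, so the difference could not pass. The sum of both genes was 1458 ± 105 FPKM at P2 and 1419 ± 63.1 at P1. The sums of the ages overlapped, while the ratios did not. Scaling between libraries nearly cancels in such a ratio, and the difference lay between 0.20 and 0.34 over all alternatives.

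For Cox7a the ubiquitous form was higher in 6 of 6 libraries. The muscle form Cox7a1 was at 583, 595 and 572 FPKM in P2 replicates 1 to 3, against 585, 605 and 544 FPKM in P1 replicates 1 to 3. The ubiquitous form Cox7a2 was at 662, 706 and 648 FPKM in P2 replicates 1 to 3, against 706, 693 and 652 FPKM in P1 replicates 1 to 3. Both genes overlapped between the ages, and Cox7a1 held 46.5% ± 0.660 at P2 and 45.8% ± 0.694 at P1 of the pair. The difference in log2 ratio was 0.040 ± 0.032 (exact two-sided permutation p = 0.2, and 0.3 adjusted over 3 pairs). The log2 changes of the single genes were 0.014 ± 0.051 and -0.025 ± 0.053, and without P2 replicate 2 that of Cox7a2 was -0.061 and that of Cox7a1 0.0005.

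For Cox8 the forms were nearly equal, with the muscle form higher in 4 of 6 libraries. Cox8b, the muscle form, was at 818, 748 and 755 FPKM in P2 replicates 1 to 3, against 675, 695 and 704 FPKM in P1 replicates 1 to 3. Cox8a, the ubiquitous form, was at 692, 759 and 736 FPKM in P2 replicates 1 to 3, against 674, 714 and 702 FPKM in P1 replicates 1 to 3. Cox8b was higher in every P2 library (log2 change 0.16 ± 0.049, 95% interval 0.042 to 0.28, limma, Benjamini-Hochberg adjusted p = 0.186), and Cox8a overlapped between the ages (0.064 ± 0.050, and 0.035 without P2 replicate 2). The muscle share was 51.5% ± 2.37 at P2 and 49.8% ± 0.424 at P1. The difference in log2 ratio, 0.097 ± 0.080, was smaller than the SD of the P2 libraries (exact two-sided permutation p = 0.3, and the same adjusted over 3 pairs), and without P2 replicate 1 it was 0.019. The sum of both genes was 1502 ± 10.5 FPKM at P2 and 1388 ± 33.3 at P1, with no overlap.

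**Figure D4:**
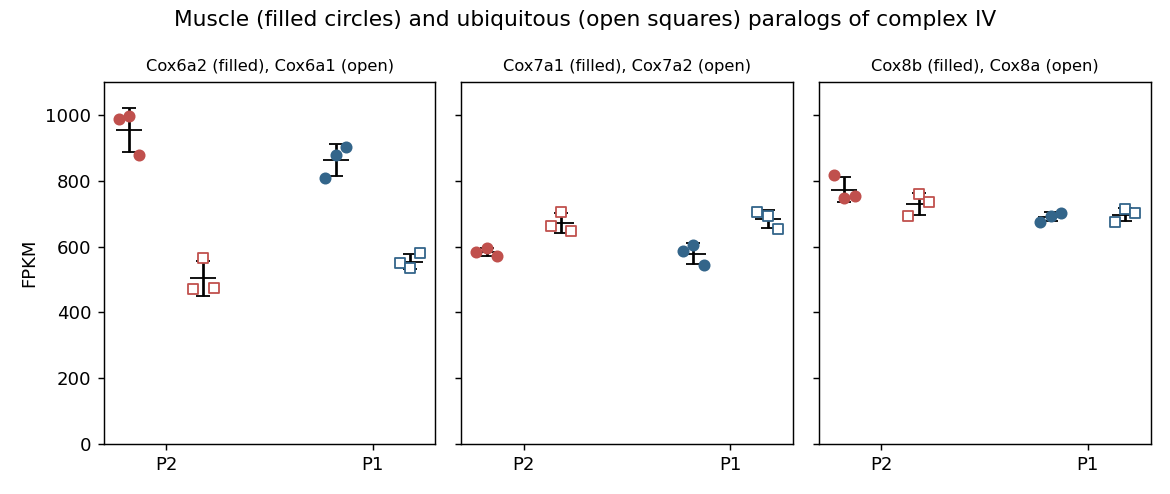
FPKM of the muscle (filled circles) and ubiquitous (open squares) forms in each library, P2 (red) left of P1 (blue), with the mean and SD of 3 libraries. Cox6a2 lies above Cox6a1 in all libraries, Cox7a1 lies below Cox7a2, and Cox8b and Cox8a lie together.

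ATP synthase had the highest levels of the 5 complexes. The beta subunit Atp5b, which carries the catalytic sites, was at 2669 ± 81.2 FPKM at P2 and 2655 ± 78.7 at P1, and the alpha subunit Atp5a1 at 1845 ± 102 FPKM at P2 and 1884 ± 137 at P1. Both differed by less than the SD within an age. The c-ring, which turns in the membrane as protons pass, is encoded by 3 genes for the same mature protein. Atp5g3 held 67.7% ± 0.723 of their FPKM at P2 and 69.6% ± 0.899 at P1. The shares of Atp5g1 were 26.4% ± 0.668 and 24.5% ± 1.26 at P2 and P1, and Atp5g2 held the rest. The log2 changes of Atp5g1, Atp5g2 and Atp5g3 were 0.12 ± 0.078, 0.011 ± 0.044 and -0.028 ± 0.059, none of them called. Without P2 replicate 2 they were 0.068, -0.020 and -0.079.

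Over the complex, 12 of 17 genes had a log2 change above 0 and the median was 0.011, where 54.7% of all genes lay above 0. This count includes P2 replicate 2. Without that library the changes of Atp5b and Atp5g2 were below 0 (-0.017 and -0.020). The stalk subunit gene Atp5h was the only one of the complex without overlap between the ages (881 ± 9.61 FPKM at P2 and 819.7 ± 47.9 at P1, log2 change 0.11 ± 0.053). The stalk subunit gene Atp5f1 was at 434 ± 25.2 FPKM at P2 and 406 ± 7.41 at P1 and Atp5mpl, a small membrane subunit, at 1147 ± 37.5 FPKM at P2 and 1189 ± 55.2 at P1. Atp5s, counted here by its symbol alone, had the lowest level (9.93 ± 1.02 FPKM at P2 and 10.3 ± 0.819 at P1). With a log2 change of -0.27 ± 0.13, Atp5e, the epsilon subunit of the central stalk, had the most negative log2 change of all members. It was at 764, 734 and 755 FPKM in P2 replicates 1 to 3, against 1058, 934 and 745 FPKM in P1 replicates 1 to 3. P1 replicates 1 and 2 were high and P1 replicate 3 lay within the range of the P2 libraries, so the ages overlapped (limma, Benjamini-Hochberg adjusted p = 0.317). The change was -0.15 without P1 replicate 1 and -0.41 without P1 replicate 3.

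Members varied little between libraries. The median SD of log2 values over 6 libraries was 0.063 for members, 0.097 for all tested genes and 0.082 for tested genes at 100 FPKM or more. The widest spread was that of Cox7b, a small subunit of complex IV encoded on the X chromosome, whose SD of 0.50 was exceeded by 3.44% of all tested genes. Cox7b was at 1224, 1040.0 and 640.4 FPKM in P2 replicates 1 to 3, against 1200.2, 586 and 617 FPKM in P1 replicates 1 to 3. Its values formed a high set of P2 replicates 1 and 2 and P1 replicate 1 and a low set of the other libraries, with both ages in each set. The highest value was 2.09 times the lowest. No other gene of the annotation overlaps it. Its log2 change was 0.30 ± 0.35, and between 0.11 and 0.64 when 1 library at a time was left out. Next in spread came Atp5e, Cycs and Cox5a, with SDs of 0.22, 0.19 and 0.18.

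**Figure D5:**
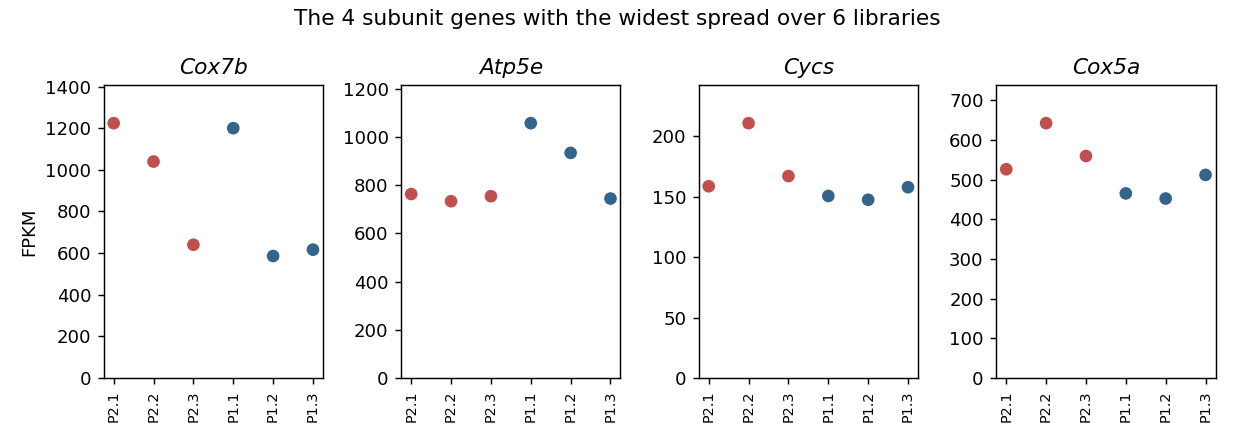
FPKM in each of the 6 libraries (axes from 0, P2 in red on the left, P1 in blue) for the 4 subunit genes with the largest SD of log2 values. Cox7b falls into values of 1040.0 FPKM or more in 3 libraries and of 640.4 or less in the other 3, while Cycs and Cox5a are highest in P2 replicate 2.

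Of the 13 mitochondrially encoded subunits, 11 were listed at 0 in all libraries, and only mt-Nd2 and mt-Nd3 had values. The gene mt-Nd3 was at 12817, 12825 and 12626 FPKM in P2 replicates 1 to 3, against 10401, 10544 and 11707 FPKM in P1 replicates 1 to 3, and mt-Nd2 at 10602, 13218 and 9542 FPKM in P2 replicates 1 to 3, against 8929, 9471 and 9453 FPKM in P1 replicates 1 to 3. Both are complex I subunits, and each was far above any nuclear member. The ages did not overlap for either gene, although the lowest P2 and the highest P1 value of mt-Nd2 were close, and P2 replicate 2 held its highest value. Neither passed limma's test, with Benjamini-Hochberg adjusted p of 0.185 and 0.349.

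Proteins that assemble the complexes were measured beside the subunits. Of 47 assembly factor genes 46 were tested, 0 were called, and 35 had a log2 change above 0 (median 0.10), where 54.7% of all genes did. At an unadjusted limma p under 0.05, 15 were higher and 3 lower at P2, where all genes gave 10.7% and 7.89%. Counts for this list and those below are given only for the values as deposited, with P2 replicate 2 included. The same 54.7% of all genes stands beside each count above 0. Bcs1l, which inserts the Rieske protein into complex III, was at 12.9, 13.97 and 13.2 FPKM in P2 replicates 1 to 3, against 10.4, 10.6 and 10.7 FPKM in P1 replicates 1 to 3. The ages did not overlap, and its adjusted p of 0.0759 in limma was lower than that of any member. The complex I factor Ndufaf2 was at 30.3 ± 1.45 FPKM at P2 and 24.9 ± 1.10 at P1. In the opposite direction, Surf1, a complex IV factor, was at 24.9 ± 0.271 FPKM at P2 and 27.4 ± 0.601 at P1.

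Of 13 citric acid cycle genes, 9 had a log2 change above 0 and none was called, with Idh3a at 275 ± 12.5 FPKM at P2 and 244 ± 12.4 at P1 and Idh3g at 281 ± 2.79 FPKM at P2 and 302 ± 2.52 at P1, subunits of the same enzyme with opposite signs. Of 13 genes for regulators of mitochondrial transcription, 9 were above 0 and none was called. The coactivator Ppargc1b was at 12.1, 14.6 and 10.7 FPKM in P2 replicates 1 to 3, against 16.9, 14.8 and 17.0 FPKM in P1 replicates 1 to 3, with every P2 value below every P1 value, though narrowly for P2 replicate 2 and P1 replicate 2 (log2 change -0.36 ± 0.11). Esrrg, an orphan nuclear receptor, was at 13.3 ± 0.399 FPKM at P2 and 11.9 ± 0.916 at P1. Of 9 further genes related to the complexes, 7 were in the table by these symbols, 3 were above 0 and none was called. Higd1a, a hypoxia-induced protein that binds complex IV, was at 46.6 ± 2.28 FPKM at P2 and 37.4 ± 3.45 at P1, and Ndufa4l2, a relative of Ndufa4, at 17.8 ± 1.17 FPKM at P2 and 16.4 ± 1.51 at P1.

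Promoter sequence was a feature that the choice of members did not use. NRF1, GABP (an ETS factor), the ERR receptors and YY1 are known to act on genes of the respiratory chain. RefSeq windows of GRCm38.p6, from 250 bases before to 50 bases after the start, were held for 68 members (73 windows). Among those not matched were Atp5a1, Atp5f1, Atp5mpl, Atp5s, Cox4i1, Cox4i2, Cox6a2, Cox6c, Cox8c, Cyc1, Ndufa2, Ndufb9, Ndufs1, Sdhc, Uqcrb, Uqcrc2 and Uqcrq. The NRF1 sequence, GCGCA and GCGC with 1 free base between them, was found in 24.7% of member windows and 10.0% of windows of tested nuclear protein-coding genes. For the ETS core CCGGAAG the shares were 21.9% and 17.5%, for the ERR half-site AAGGTCA 10.96% and 3.03%, and for the YY1 sequence AAGATGGC 12.3% and 4.43%. The sequence of the muscle factor MEF2, CTA and TAG with 4 free bases between them, was found in 1 member window, that of Cox5b (1.37%), and in 3.16% of windows of tested genes. Each sequence was searched on both strands, and matches of different sequences were counted separately where they overlapped. A match is a description of the letters only. The NRF1 matches of Ndufa5 and Ndufa11, which had unadjusted p under 0.05, and of Cox6a1 and Sdhd are shown in capitals with 20 bases on each side, the last 2 because Cox6a1 is a ubiquitous form of the pair above and Sdhd had no overlap between the ages. All lie before the RefSeq start of their window, 5′ to 3′ on the strand of the gene in GRCm38.p6. That of Ndufa5 lies inside the gene as placed by GENCODE M21 (chr6:24518666-24528013).
Ndufa5 (chr6:24527687-24527736, minus strand): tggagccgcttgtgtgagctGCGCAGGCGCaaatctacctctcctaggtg
Ndufa11 (chr17:56717682-56717731, plus strand): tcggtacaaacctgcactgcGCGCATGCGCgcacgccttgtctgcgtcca
Cox6a1 (chr5:115349091-115349140, minus strand): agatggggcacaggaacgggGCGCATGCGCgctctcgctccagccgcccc
Sdhd (chr9:50603899-50603948, minus strand): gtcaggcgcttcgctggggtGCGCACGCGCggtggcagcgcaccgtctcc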

How the data were processed

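Polyadenylated RNA of ventricles was sequenced in 6 libraries. The authors deposited 1 table of FPKM values per gene and library. Per the submitters' processing notes, FastQC, TopHat2, Cuffdiff 2.2.1 and R 3.2 were used. The genome build, annotation, filters, scaling between libraries and use of strand (not given in the sources used here) could not be checked. The depth behind the FPKM values is unknown, so no counting error could be given.

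Gene symbols came from GENCODE M21 (GRCm38). P2 and P1 were compared with limma 3.58.1 in R 4.3.3 on log2(FPKM + 1) with a variance trend, over 13624 genes whose mean reached 1 FPKM, and p-values were adjusted by Benjamini and Hochberg over all of them (threshold 0.05). A log2 change on this scale understates the change of low genes. The procedure was tested on simulated data. Paralog ratios were compared by exact permutation of the 6 libraries. RefSeq promoters are of GRCm38.p6.

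Members, gene lists and markers were chosen with earlier results of these data known. Named were all paralogs, in each complex the 3 members highest and 1 lowest in level and the 2 with the smallest p in each direction, and up to 2 genes of each other list; Ndufa5, Ndufb7, Ndufb10, Ndufs7, Ndufa7, Ndufb9, Uqcrc1, Uqcrc2, Cyc1, Cox5b, Surf1 and the sequences searched and printed were picked after the values were seen. Values of some single members are not reported here. Alternatives were another pseudocount, other filters, 4 scalings, no variance trend, a replicate block, and leaving out each library.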

Additional observations from a re-analysis of the deposited data

How the results depend on the processing

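No member was called in 15 of 16 alternatives. The exception was scaling to equal FPKM sums, with 6 of 84 members called lower. Among all genes, of which 13624 were tested as deposited, it called 39 higher and 2394 lower. Called genes numbered 18 higher and 22 lower with a pseudocount of 0.1, 17 and 24 at a mean of at least 5 FPKM, and 49 and 62 without genes listed at 0 in any library, where the counts as reported were 10 and 12. Without a variance trend 7 were lower, and without 1 library 2 to 13 were higher and 2 to 12 lower. Same-numbered libraries deviated with r of -0.011, 0.10 and 0.0093 over 13624 genes, beside -0.075 to 0.070 for libraries of different number. With 3 libraries per age these values cannot show whether the numbers pair the libraries, and no pairing was used in the main test. With the replicate block 3 genes were higher and 2 lower, and no member. The log2 change turned below 0 with equal FPKM sums in 23 of 42 named members. In ATP synthase these were Atp5b (-0.16), Atp5f1 (-0.079), Atp5g1 (-0.052), Atp5g2 (-0.16) and Atp5h (-0.066), in complex IV Cox4i2 (-0.061), Cox6a2 (-0.029), Cox6b1 (-0.13), Cox6b2 (-0.098), Cox7a1 (-0.16), Cox7a2l (-0.11), Cox8a (-0.11) and Cox8b (-0.010), in complex I Ndufa11 (-0.0055), Ndufa13 (-0.012), Ndufa3 (-0.11), Ndufa4 (-0.084) and Ndufa6 (-0.043), and in the other complexes Sdha (-0.16), Sdhd (-0.088), Uqcr11 (-0.083), Uqcrb (-0.089) and Uqcrfs1 (-0.11). With equal nuclear protein-coding sums it did so for Atp5b (-0.022), Atp5g2 (-0.018), Cox7a1 (-0.015) and Sdha (-0.019), with median ratio scaling for Atp5b (-0.0087), Atp5g2 (-0.0043), Cox7a1 (-0.0014) and Sdha (-0.0057), and with quantile normalization for Atp5b (-0.32), Atp5g2 (-0.015), Cox6a2 (-0.0038), Cox6b1 (-0.064), Cox7a1 (-0.026), Ndufa3 (-0.019), Ndufa4 (-0.082), Sdha (-0.029) and Uqcr11 (-0.045). When 1 library at a time was left out, the range crossed 0 for Atp5a1 (-0.082 to 0.023), Atp5b (-0.018 to 0.024), Atp5g2 (-0.020 to 0.030), Atp5g3 (-0.079 to 0.009), Atp5s (-0.11 to 0.021), Cox6b2 (-0.0029 to 0.15), Cox7a1 (-0.029 to 0.048), Cox7a2 (-0.061 to 0.001), Ndufb8 (-0.074 to 0.024), Sdha (-0.023 to 0.032), Sdhb (-0.043 to 0.015) and Uqcrfs1 (-0.010 to 0.11). The paralog ratios kept their direction in every alternative. Why scaling moved these values was not tested. With 3 libraries per age an exact test cannot go below 0.1, and the depth behind low values is unknown.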
